A study of Rattus norvegicus with 6 samples.

Results

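Rat chromosomes 11, 15 and 18 are 3 of the autosomes on which the promoters covered by the array gave a low methylation signal in ovarian granulosa cells. The array carried 14154 probes for these chromosomes, of 172669 in all. Probes were joined into tiles, runs of neighbouring probes whose starts lay at most 1000 bp apart, and a tile was a member where at least 3 of its probes were well above background in the input channel of all 6 arrays. This gave 1264 member tiles of 16001 on the array, with 407 on chromosome 11, 476 on chromosome 15 and 381 on chromosome 18. Another 6 tiles of these chromosomes fell short of the limit. After spots marked as outliers were left out, 1251 members could be tested, 23 of them with exactly 3 kept probes, and 13 members could not. The chromosomes were chosen with their measured levels known, so the levels below are a description and carry no test.

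Sprague Dawley dams received by gavage either water (0 mg/kg, the control group) or 8 mg/kg cadmium chloride from gestation day 1 to 21. Granulosa cells of their adult daughters were taken at postnatal day 56 by puncturing follicles, and DNA from 3 samples per group was hybridised, 1 array per sample. The labels call the 3 samples of a group biological replicates and do not tie them to dams or litters. The groups shared strain, sex, age and the feeding by gavage, and the isolation mixed the contents of the punctured follicles. The protocol names a strainer and centrifugation and no sort by marker, and a DNA array holds no expression marker by which the labelled cell type could be checked.

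DNA methylation in mammals lies mainly on the cytosine of CpG dinucleotides. Promoters rich in CpG are usually unmethylated, while promoters with few CpG are more often methylated. In methylated DNA immunoprecipitation an antibody against 5-methylcytosine pulls down methylated fragments, and the log2 ratio of immunoprecipitated DNA (Cy5) over input DNA (Cy3) is read for each probe. The ratio is relative and depends on CpG density and on how well a probe hybridises, so a negative ratio is a level below the array's median and not a percentage of methylated molecules. Granulosa cells surround the oocyte, make oestradiol and respond to follicle-stimulating hormone. In RefSeq's GRCr8 annotation the zinc finger factor gene Gata4 lies on chromosome 15, Gata6 and the signal transducer gene Smad4 lie on chromosome 18, and Nrip1, a co-repressor of nuclear receptors needed for ovulation, lies on chromosome 11. The array's coordinates are of build rn4, so no tile was assigned to these or other genes and no tile sequence was printed.

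Chromosome 11 had the lowest mean control ratio of the 20 autosomes, at -0.57 ± 0.013 (SD, n = 3 arrays, log2 scale, mean over 405 tiles). On it the control arrays gave -0.57, -0.58 and -0.55 and the cadmium arrays -0.55, -0.49 and -0.49. Chromosome 15 followed at the third place with -0.53 ± 0.021 over 467 tiles. Its control arrays gave -0.54, -0.54 and -0.50 and its cadmium arrays -0.49, -0.46 and -0.45. Chromosome 18 was at place 6 with -0.51 ± 0.016 over 379 tiles, from -0.51, -0.52 and -0.49 in the control arrays and -0.49, -0.45 and -0.44 in the cadmium arrays.

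The 3 chromosomes are therefore not the 3 lowest. Chromosome 3 (-0.53), chromosome 4 (-0.52) and chromosome 2 (-0.52) lay between chromosomes 11 and 18, each less than 1 SD of the control arrays from chromosome 15. Of the 3, only chromosome 11 had the same place on each of the 6 arrays, the lowest. Chromosome 19 stood at the other end with 0.056.

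The probes of the array differ in length from 45 to 60 bases, and the ratio fell steeply with length. In control arrays, 45-base probes of the 3 chromosomes had a mean ratio of 0.69 ± 0.031 and their 60-base probes -2.38 ± 0.039. On the other autosomes the same classes had 0.79 ± 0.041 and -2.39 ± 0.041. Across the 20 autosomes the mean probe length and the control level gave r = -0.95 (Spearman's rho = -0.89), a description over chromosomes that share the same arrays.

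Chromosome 11 carried the most long probes of the 3. Of its kept probes 41.4% were 45 bases and 15.8% were 60 bases long, against 48.5% and 11.4% on the other autosomes. Chromosome 15 had 46.4% and 10.9%, and chromosome 18 had 45.4% and 11.4%. The mean length over kept probes was 50.01 bases on chromosome 11, 49.3 on chromosome 15 and 49.4 on chromosome 18, against 49.1 on the other autosomes.

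**Figure D1:**
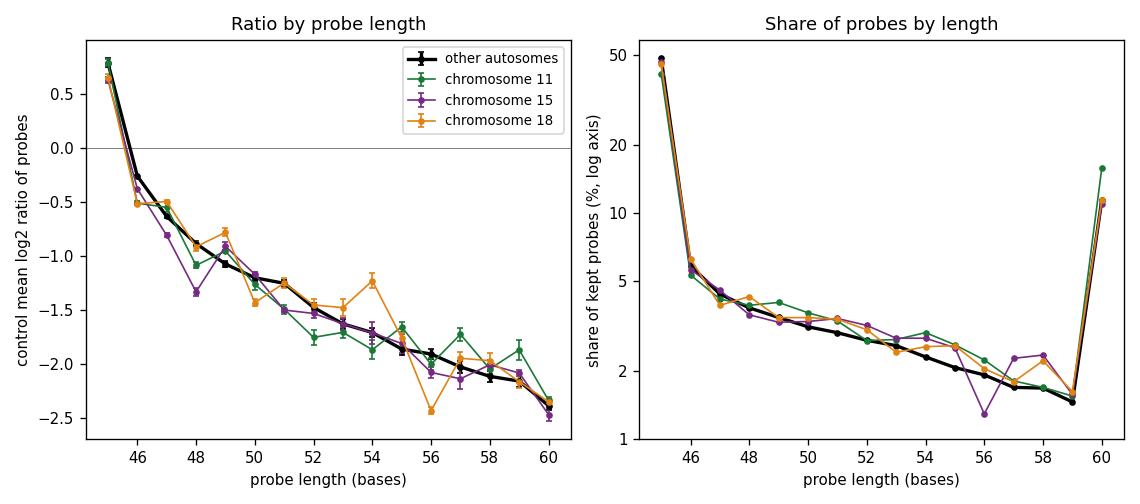
Left, mean log2 ratio of kept probes in the 3 control arrays (points, with SD bars) against probe length in bases, for chromosomes 11, 15 and 18 and for the other autosomes together. Right, share of kept probes at each length on a log axis. The 4 lines fall together from about the 45-base to the 60-base class, and chromosome 11 has the smallest share at 45 bases and the largest at 60 bases (15.8%).

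Subtracting each array's median for probes of the same length reordered the chromosomes. Chromosome 15 became the lowest autosome at -0.21 ± 0.0058, and it was the lowest on all 6 arrays. Chromosome 18 moved to the third place with -0.12 ± 0.0036, next to chromosomes 2 (-0.12) and 13 (-0.11) and within the spread of both. Chromosome 11 moved from the lowest place to the seventh, at -0.092 ± 0.0041.

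Measured against the other autosomes together, most of the distance of chromosome 11 was gone after the length step. In the control arrays it was -0.23 ± 0.017 before and -0.029 ± 0.016 after. For chromosome 15 the distance went from -0.19 ± 0.0087 to -0.14 ± 0.0080, and for chromosome 18 from -0.17 ± 0.014 to -0.052 ± 0.013. The 3 chromosomes together stood at -0.20 ± 0.013 and, after the length step, at -0.078 ± 0.012.

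**Figure D2:**
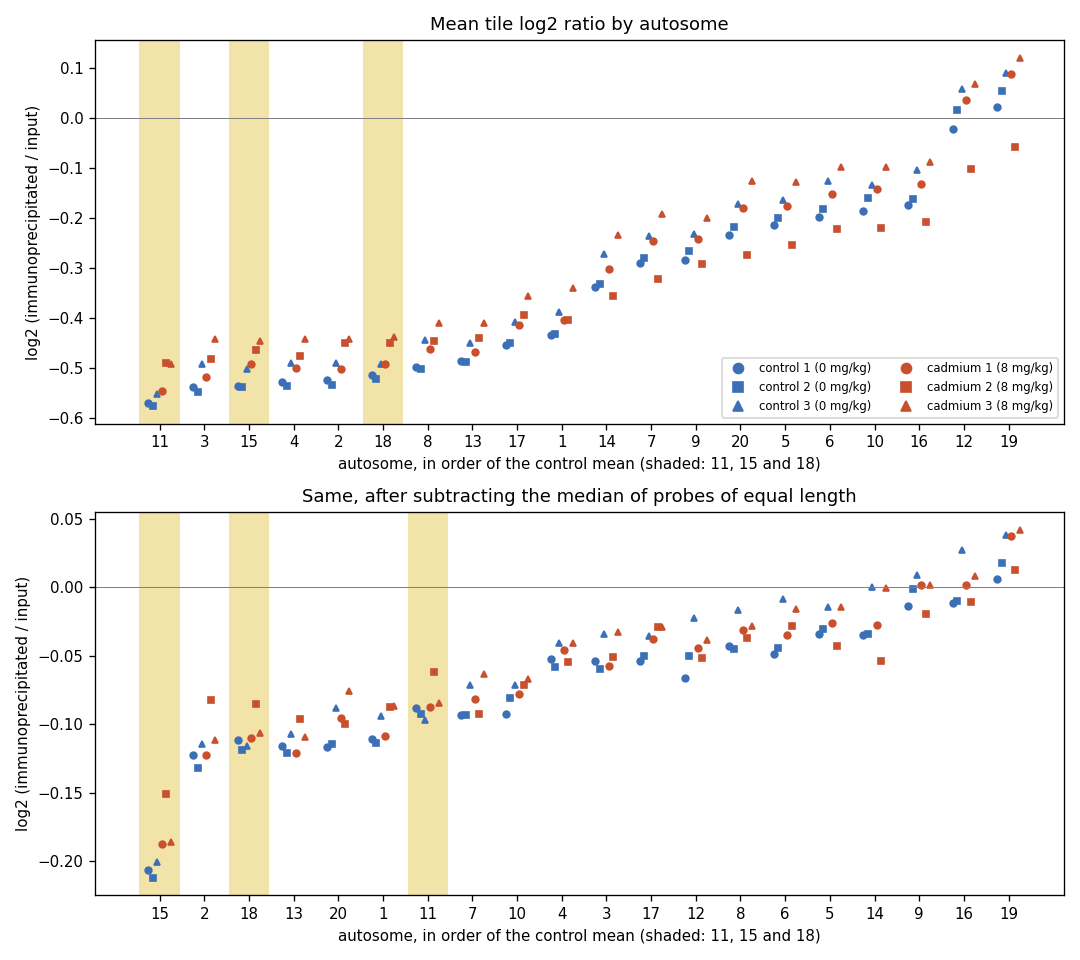
Mean tile log2 ratio of each autosome on each array (circles, squares and triangles are replicates 1, 2 and 3; blue is 0 mg/kg, red 8 mg/kg), as measured (top) and after subtracting the median of probes of the same length (bottom). Autosomes stand in the order of their control mean, with chromosomes 11, 15 and 18 shaded. Chromosome 11 goes from the lowest place to the seventh and chromosome 15 from the third to the lowest.

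The distance to the other autosomes varied between length classes. At 45 bases chromosome 15 differed from the other autosomes by -0.16 and chromosome 18 by -0.14, while chromosome 11 differed by 0.0023. At 60 bases chromosome 15 differed by -0.081, and chromosomes 11 and 18 were 0.050 and 0.037 higher. Chromosome 15 lay below the other autosomes in 10 of the 16 length classes, chromosome 11 in 8 and chromosome 18 in 6. The widest gap below in any class was -0.45 on chromosome 15, -0.28 on chromosome 11 and -0.52 on chromosome 18.

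The single channels differed in the same comparison. In control arrays the immunoprecipitated signal of the 3 chromosomes was -0.15 ± 0.0053 relative to the other autosomes, and their input signal was 0.044 ± 0.016 (log2). Chromosome 11 had the lowest immunoprecipitated signal of the 3 (-0.25 ± 0.0094) with an input of -0.026 ± 0.024. Chromosome 15 had a nearly ordinary immunoprecipitated signal (-0.060 ± 0.0014) and a raised input (0.13 ± 0.0079). Chromosome 18 gave -0.16 ± 0.0068 and 0.015 ± 0.019. The input mean of chromosome 15 includes 8 of its 467 tiles, in a block described below, whose input was 4.48 ± 0.16. The single-channel distances were not computed without these tiles.

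Tiles of the 3 chromosomes were spaced further apart than tiles elsewhere. The median distance to the next tile was 70999 bp on chromosome 11, 54083.5 bp on chromosome 15 and 83121 bp on chromosome 18, against 50498.5 bp on the other autosomes. Tile size was alike, with a median span of 1667 bp and 7 kept probes on the 3 chromosomes and 1666 bp and 7 probes elsewhere. A ratio of at most -1 (2-fold below the array median) on all 6 arrays was seen in 265 tested members (21.2%) and in 17.8% of tiles of the other autosomes. A ratio of at least 1 on all 6 arrays was seen in 16 members (1.28%) and in 1.79% elsewhere. Chromosome 11 had the largest share of low tiles (23.5%) and the smallest share of high tiles (0.988%) of the 3.

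RefSeq's own promoters of these chromosomes (250 bases before to 50 after each start of a protein-coding gene, GRCr8) did not share one composition. Those of chromosome 15 held a mean of 12.9 CpG, the fewest of the 20 autosomes, over 616 promoters. Chromosome 11 held 13.6 over 572 promoters, at place 6 from the lowest, and chromosome 18 held 15.9 over 506 promoters, at place 15. The other autosomes together held 14.6. These promoters were not matched to tiles.

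Each chromosome was uneven along its length. In 5 Mb windows with at least 5 tiles, 12 of 16 windows of chromosome 11, 13 of 18 of chromosome 15 and 12 of 17 of chromosome 18 had a length-corrected control ratio below 0, or 72.5% of the 51 windows against 59.6% of the 431 others. On chromosome 11 the window from 40 to 45 Mb held 47 tiles at -1.50, the seventh lowest of 482 windows. Its probes were long (a mean of 53.2 bases per tile), and after the length step it stood at -0.22, at place 80. On that scale the lowest windows of chromosome 11 were those from 0 to 5 Mb (6 tiles, -0.48, place 7) and from 55 to 60 Mb (22 tiles, -0.35, place 17). On chromosome 18 the window from 25 to 30 Mb held 64 tiles at -0.99. After the length step it stood at -0.39, at place 12 of 482.

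Chromosome 15 held the lowest of the 482 windows, which covered autosomes only. The window from 5 to 10 Mb had a mean of -2.66 over 10 tiles, and -2.55 after the length step, while the next lowest window, on chromosome 1, stood at -0.63. The low values came from a block of neighbouring tiles from 4856408 to 5857937, which was singled out after its values were seen. It held 10 tiles, of which 8 could be tested. Their mean ratio was -4.49, -4.41 and -4.45 in the control arrays and -4.28, -3.48 and -3.84 in the cadmium arrays. The groups did not overlap (-4.45 ± 0.039 and -3.87 ± 0.40, n = 3 arrays each), with cadmium 2 the highest. Of the 10 autosomal tiles with a control ratio under -4 on the array, 6 lay in this block.

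In the control arrays the immunoprecipitated signal of the block was near the array median (0.11 ± 0.18, log2) and its input signal was far above it (4.48 ± 0.16). The lowest tile, from 5856423 to 5857937, had an input of 43.1, 48.3 and 40.6 times the array median in the control arrays and 41.9, 22.6 and 40.1 times in the cadmium arrays. Its ratio was -5.92, -5.80 and -5.90 in the control arrays and -5.71, -4.49 and -4.93 in the cadmium arrays. The tile from 5672589 to 5674071 stood apart from the other 7, since its immunoprecipitated signal was high as well (2.40), and its control ratio was -0.79 ± 0.12. No probe of the block was saturated on any array. Outlier marks removed 36 of its 70 probes (51.4%), against 12.5% on the other autosomes, so the 8 tested tiles rested on 30 kept probes.

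Without the block the length-corrected distance of chromosome 15 to the other autosomes went from -0.14 to -0.072 ± 0.0079, and chromosome 15 was still the lowest autosome on that scale. On the scale as measured it went from the third place to place 8. The distance of the 3 chromosomes together went from -0.20 to -0.17 ± 0.013 as measured and from -0.078 to -0.052 ± 0.012 after the length step.

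**Figure D3:**
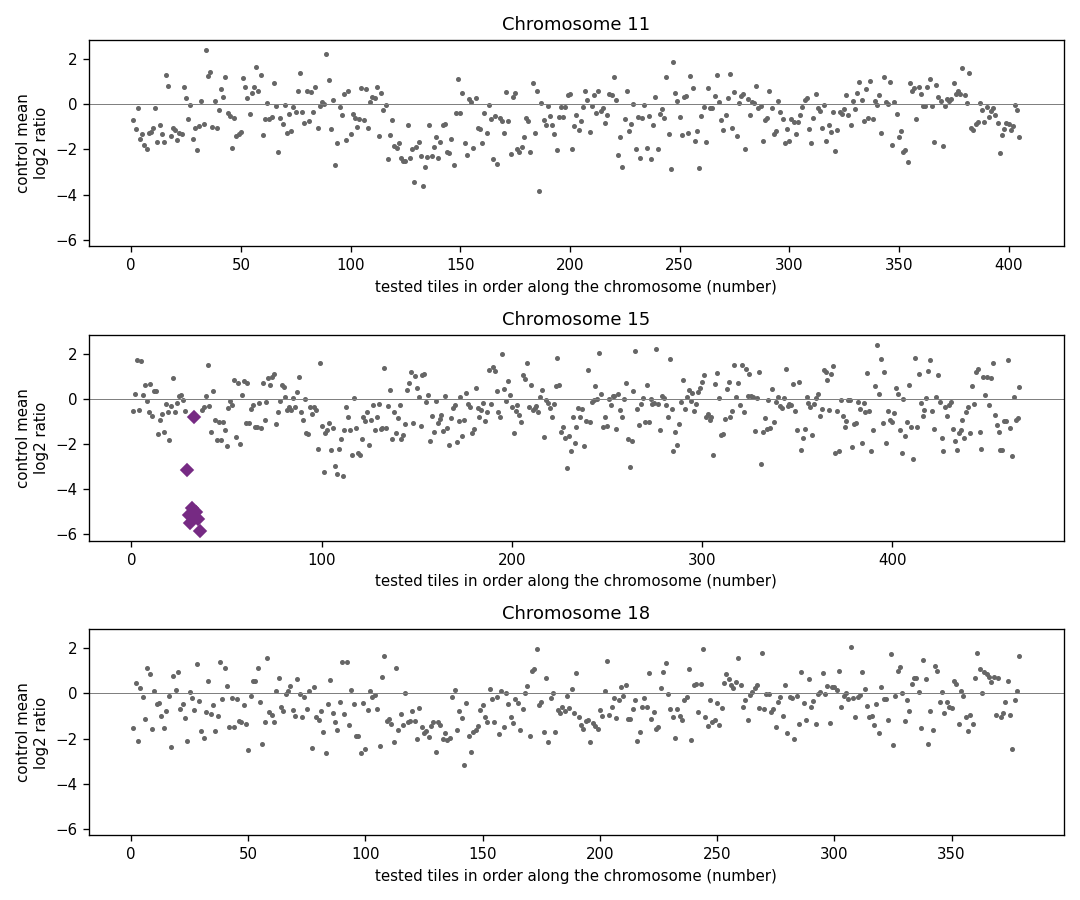
Control mean log2 ratio of every tested tile (points) in its order along chromosomes 11, 15 and 18. Purple diamonds are the 8 tested tiles of the high-input block on chromosome 15. In it 6 of the 8 lie under -4, where no other tile of these chromosomes lies.

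The highest and the lowest tiles with at least 4 kept probes differed in probe length as well as in ratio. The 9 highest tiles (3 per chromosome) had control ratios from 1.87 to 2.42 and a mean probe length from 45 to 47.5 bases. The highest lay on chromosome 11 from 25442645 to 25444342, with 2.30, 2.37 and 2.58 in the control arrays and 2.36, 0.97 and 2.12 in the cadmium arrays. Cadmium 2 was by far the lowest array in it, cadmium 3 also lay below all control arrays, and the groups overlapped. On chromosome 15 the highest tile, from 57403629 to 57405422, had 2.18, 2.35 and 2.62 against 2.37, 1.03 and 2.30. On chromosome 18 the tile from 63918487 to 63920100 had 1.85, 1.96 and 2.31 against 2.12, 1.30 and 2.22. Cadmium 2 was again the lowest array in both.

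The 9 lowest such tiles had control ratios from -5.14 to -2.66 and probes of 49.8 to 57.3 bases on average. After the length step they still lay between -4.67 and -1.17. The lowest of chromosome 11, from 56616639 to 56617884, had -3.90, -3.89 and -3.77 in the control arrays and -3.99, -2.52 and -3.51 in the cadmium arrays. Here cadmium 2 was the highest array. All 9 lowest tiles had a higher cadmium than control mean (by 0.094 to 0.79), and none of the 9 highest had (-0.60 to -0.16), with adjusted p of 0.856 to 0.891 in limma. The choice by control mean favours these directions. Without cadmium 2 the 2 ranges were -0.081 to 0.64 and -0.18 to 0.13.

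The design asks whether cadmium given to the dam changed the methylation signal of these chromosomes in the daughters' cells. In the fit over all 15846 tiles (limma, Benjamini-Hochberg adjustment over all tiles), 0 of the 1251 members passed an adjusted p of 0.05, and 0.00631% of all tiles did (1 tile). At an unadjusted p under 0.05 there were 57 members (4.56%), against 3.57% of all tiles. Of these 51 were higher in cadmium, where 3.26% of all tiles were, and 6 were lower, where 0.303% were. This balance changed with the scaling of the arrays. It was 27 higher and 8 lower with loess, 14 and 18 with quantile normalisation, 3 and 12 with equal spread of the arrays, 6 and 7 with normexp and 12 and 10 in the authors' deposited table. When both channels had to be above background, 12 members were higher and 4 lower at that threshold. The share over all tiles was not computed for these settings, so a change particular to these chromosomes cannot be read from them. Members in which the 2 groups of arrays did not overlap numbered 154 (12.3%), against 10.2% of all tiles. The cadmium arrays were the higher ones in 133 of them (7.95% of all tiles) and the lower ones in 21 (2.28% of all tiles). By chromosome the unadjusted count was 16 of 405 (chromosome 11), 26 of 467 (chromosome 15) and 15 of 379 tested tiles (chromosome 18). Without cadmium 2 it was 67 members (61 higher and 6 lower), where 4.62% of all tiles passed. After the length step it was 46 members (3.05% of all tiles), with 29 higher in cadmium (1.95% of all tiles) and 17 lower. On the input signal alone 15 members had an unadjusted p under 0.05 (1.56% of all tiles) and on the immunoprecipitated signal 44 (3.13% of all tiles), and 0 passed after adjustment in limma on either channel. The median half-width of a member's 95% confidence interval was 0.31 on the log2 scale, a width for 1 tile taken alone. Differences as large as 0.83, in a member with 3 kept probes, did not pass the adjustment over all tiles.

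The mean of every one of the 3 chromosomes was higher in cadmium, by 0.057 on chromosome 11, 0.058 on chromosome 15 and 0.050 on chromosome 18. In each the lowest cadmium array lay above the highest control array, on chromosome 18 only just, which was so for no other autosome. The cadmium mean was the higher one on 18 of the 20 autosomes, on 16 after the length step and on 8 when the arrays were centred on kept probes. The differences on chromosomes 2, 3 and 4, of like level, were 0.052, 0.045 and 0.045 with overlapping arrays. Since the chromosomes may have been picked with this known, no test is read from it. After the length step the differences were 0.014, 0.032 and 0.015, again without overlap on these 3 autosomes alone, and without cadmium 2 they were 0.0064, 0.020 and 0.0068. When the arrays were instead centred on the median of kept probes only, the 3 differences were 0.015, 0.017 and 0.0078, and the groups overlapped on all 20 autosomes.

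Relative to the other autosomes, the shift was larger than the spread of the control arrays and smaller than that of the cadmium arrays, which cadmium 2 widened. The distance of the 3 chromosomes was -0.18, -0.20 and -0.21 in the control arrays and -0.19, -0.12 and -0.19 in the cadmium arrays. Cadmium 2 alone lay outside the control range. The means differed by 0.029 (-0.20 ± 0.013 and -0.17 ± 0.041), with p = 0.4 in a two-sided exact permutation test over 3 against 3 arrays, where the smallest p possible is 0.1. Without cadmium 2 the difference was 0.0053. It was 0.0012 within the scan batch that held 2 control arrays and cadmium 1, and 0.016 within the batch that held control 3 and cadmium 3.

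After the length step the distance was -0.068, -0.075 and -0.092 in the control arrays and -0.069, -0.042 and -0.080 in the cadmium arrays. The difference was 0.014 (exact permutation p = 0.5), and 0.0036 without cadmium 2. Single chromosomes gave length-corrected shifts of 0.0080 (chromosome 11), 0.025 (chromosome 15) and 0.0080 (chromosome 18), with exact permutation p of 0.6, 0.2 and 0.5 and 0.6 for each after adjustment over the 3. On chromosome 15 cadmium 1 and cadmium 2 lay above all 3 control arrays and cadmium 3 above 2 of them, while on chromosomes 11 and 18 cadmium 2 alone lay above all 3.

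**Figure D4:**
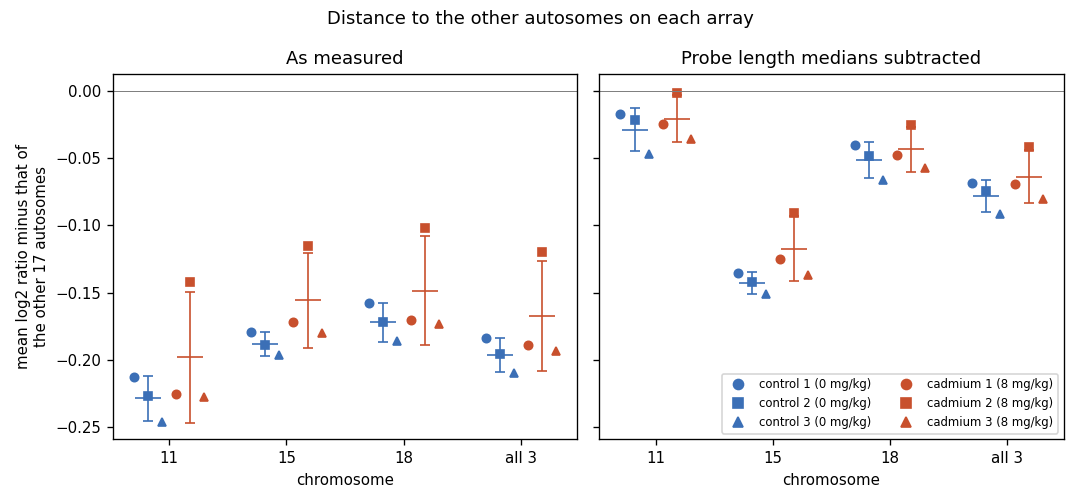
Mean tile log2 ratio of chromosomes 11, 15, 18 and of the 3 together, minus that of the other autosomes, on each array (circles, squares and triangles are replicates 1, 2 and 3; blue is 0 mg/kg, red 8 mg/kg). Dashes with bars are group means with SD (n = 3). Cadmium 2, the red square, is the highest array in every column, and the other cadmium arrays lie among or close to the control arrays.

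Cadmium 2 was scanned alone in its batch and had a narrower spread of tile ratios, with an SD of 0.776 against 1.06 to 1.12 on the other 5 arrays. The relative shift moved with its input channel. The input distance of the 3 chromosomes was 0.031, 0.038 and 0.063 in the control arrays and 0.041, -0.031 and 0.047 in the cadmium arrays, while the immunoprecipitated distance stayed between -0.158 and -0.146 on all 6 arrays. Cadmium 2 and its scan batch cannot be told apart.

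The cadmium difference was also set against the level of the tile. The classes use the control mean, which the difference subtracts, so part of such a slope comes from the choice of classes. In members with a control ratio under -2 the median difference was 0.29 (105 tiles), and in members over 1 it was -0.19 (96 tiles). On the other autosomes the same classes gave 0.26 and -0.21. Without cadmium 2 the members gave 0.14 and 0.0047, and the other autosomes 0.12 and 0.0092. Over all members the median difference was 0.059 against 0.024 on the other autosomes, and 0.045 against 0.040 without cadmium 2.

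On chromosome 15, the member of smallest p in the fit ran from 38391346 to 38393103 and held 9 kept probes. Its ratio was -1.76, -1.82 and -1.73 in the control arrays and -1.06, -1.10 and -1.19 in the cadmium arrays. All cadmium arrays lay above all control arrays, and cadmium 2 was not apart from the others. The difference was 0.65 (SE 0.11, 95% confidence interval 0.41 to 0.89, a 1.57-fold higher ratio) with an adjusted p of 0.700 in limma. The input signal was lower by 0.64 on the log2 scale in cadmium and the immunoprecipitated signal differed by 0.018. With the scan batch as a block its adjusted p was 0.0119, with the batch as a random block 0.0217, and with array weights 0.00522. Array weights called 15 members, where 0.669% of all tiles passed, and gave cadmium 2 a weight of 0.128.

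The next on chromosome 15, from 26339073 to 26340697 with 6 probes, had -3.29, -3.46 and -3.51 against -2.83, -2.40 and -2.74. It differed by 0.76 (SE 0.14, limma adjusted p = 0.856). Its input differed by -0.63 and its immunoprecipitated signal by 0.14. The latter lay far below the array median in the control arrays (-3.59, log2), and with normexp the ratio differed by 0.34. With the scan batch as a block its adjusted p was 0.0227, and these 2 tiles were the only members of the 24 tiles called by that fit (0.151% of all tiles). The third was the tile of the high-input block from 4980989 to 4982562, with -5.11, -5.10 and -5.20 against -4.74, -3.92 and -4.39 (limma adjusted p = 0.856, and 0.00627 with array weights).

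On chromosome 11 the tile with the smallest p among the higher ones, from 42029727 to 42031398 with 7 probes, had -3.29, -3.44 and -3.55 against -3.01, -2.74 and -3.02. It differed by 0.51 (SE 0.13, limma adjusted p = 0.856). On chromosome 18 the tile from 30125936 to 30127652 with 5 probes had -3.11, -3.34 and -3.02 against -2.78, -2.12 and -2.67, a difference of 0.63 (SE 0.18, limma adjusted p = 0.856). Cadmium 2 was the highest array in both tiles, and the differences without it were 0.42 and 0.43. In the control arrays the immunoprecipitated signal of the 2 tiles lay far below the array median (-2.68 and -3.74, log2). With normexp the differences were 0.0093 and 0.091. With array weights the tile of chromosome 18 had an adjusted p of 0.0394.

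The tiles named for a lower ratio in cadmium lay at higher levels than those named for a higher one. On chromosome 11 the tile from 57925757 to 57927430 with 7 probes had -0.04, -0.22 and -0.06 in the control arrays and -0.43, -0.51 and -0.58 in the cadmium arrays. Here the immunoprecipitated signal differed by -0.37 and the input by 0.017, and the ratio by -0.39 (SE 0.11, limma adjusted p = 0.856). On chromosome 15 the tile from 50925548 to 50926879 with 5 probes had -0.22, -0.49 and -0.37 against -0.71, -0.66 and -0.63, and its immunoprecipitated signal differed by -0.28. On chromosome 18 the tile from 70997944 to 70999480 with 8 probes had 0.24, -0.10 and -0.11 against -0.23, -0.49 and -0.26. The cadmium arrays lay below all control arrays in each of the 3. With array weights the tile of chromosome 11 had an adjusted p of 0.0488.

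The 18 tiles picked by this rule (3 in each direction per chromosome) had differences of 0.30 to 0.79 and of -0.39 to -0.25. None passed in the limma fit without block or weights (adjusted p of 0.700 to 0.856), and the groups did not overlap in any of them, as the choice by p favours. In other fits 5 of the 18 passed, 2 with the scan batch as a block, 1 of these with it as a random block and all 5 with array weights.

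**Figure D5:**
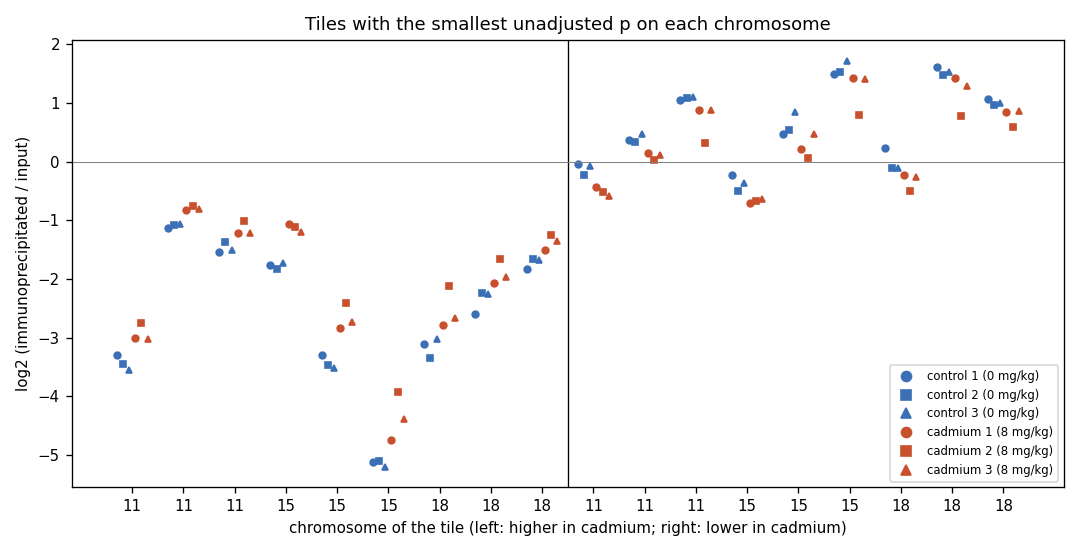
Log2 ratio on each array of the 18 tiles with the smallest unadjusted p, 3 higher and 3 lower in cadmium per chromosome, each with at least 4 kept probes (circles, squares and triangles are replicates 1, 2 and 3; blue is 0 mg/kg, red 8 mg/kg). The 9 tiles on the left have control means from -5.14 to -1.08 and the 9 on the right from -0.36 to 1.59.

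Among single probes, 0 of 10831 members passed on the ratio (limma; 0% of all 132042 kept probes), and 383 had an unadjusted p under 0.05, or 3.54% against 3.13% of all. Of these 334 were higher in cadmium, where 2.68% of all probes were. The input alone gave 230 member probes at that threshold (2.12% of all probes) and the immunoprecipitated signal alone 316 (2.91% of all probes), with 0 after adjustment for the latter. On the input channel alone 1 member passed, where 0.00151% of all probes did (2 probes). This 45-base probe on chromosome 11 from 56587996 to 56588040 had an input of 4.30, 4.58 and 5.75 times the array median in the control arrays and 0.867, 0.673 and 0.711 times in the cadmium arrays. The input was 6.48-fold lower in cadmium (limma adjusted p = 0.0369). The probe's ratio was -3.95 ± 0.13 and -1.63 ± 0.30 (adjusted p = 0.504), and its immunoprecipitated signal differed by -0.37. The ratio of the 13 kept probes of its tile, from 56586008 to 56588040 and with this probe among them, differed together by 0.0062. The input of the neighbouring probes alone was not summarised. Of the 14 runs on the array, in which 3 or more probes in a row, at most 500 bp apart, moved one way at unadjusted p under 0.05, 0 lay on the 3 chromosomes, which held 8.20% of the kept probes.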

How the data were processed

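The authors deposited 1 scanner file per array, with background-subtracted, dye-normalised signal intensity from Agilent Feature Extraction 11.0.1.1 and probe positions of build rn4, per the file headers. Cy5 held immunoprecipitated and Cy3 input DNA, per the labels' protocols. The authors also deposited a table of log2 ratio values whose scale and centring are not stated (medians -0.034 to 0.027, r of 0.874 to 0.882 with the scanner ratio), and the submitters' processing notes name limma. Here log2(Cy5/Cy3) was centred on each array's median over all probes that are not controls. Probes below background in the input on any array, or marked as outliers, were then left out (132042 kept), and kept probes averaged per tile where at least 3 remained. Tiles and probes were fitted with limma 3.58.1 (R 4.3.3) over the whole array, cadmium against control. Chromosome means were compared by exact permutation. The functions were tested on simulated data.

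Members, lists and the rule for named tiles (per chromosome, every passing tile, the 3 smallest p in each direction and the 3 highest and lowest control ratios, with at least 4 kept probes, every run and every passing probe) were chosen with earlier results of these data known. The granulosa cell genes named come from a list of 35 written after the files were seen, of which 9 lie on these chromosomes. Array number limits the precision. Median input intensity was 653 to 767 and 89.7% to 98.2% of probes were above background in the input. In the immunoprecipitated channel 74.1% to 77.7% were, and the filter on background did not use that channel. No 2 arrays shared identical values. The p-values rest on the spread among the arrays, which may be technical. Scan batches come from the file headers: 3 batches, with cadmium 2 alone in one.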

Additional observations from a re-analysis of the deposited data

How the results depend on the processing

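No member passed under 23 of the 26 alternatives. The exceptions were the scan batch as a block (2 members, with 0.151% of all tiles called), as a random block (1, with 0.0379%) and array weights (15, with 0.669%). Array weights called 106 tiles in all. Of their 15 members, 11 lay on chromosome 15, 5 of these in its high-input block. Cadmium 2 was weighted at 0.128 and cadmium 3 at 3.10. In the fit with the scan batch as a block, cadmium 2 does not inform the difference. Leaving out each array in turn called 0 members throughout.

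The control distance of the 3 chromosomes to the other autosomes stayed negative under all alternatives. As measured it was -0.15 with loess, -0.18 with equal spread of the arrays, -0.12 with normexp, -0.13 with both channels above background, -0.18 with at least 5 probes, -0.23 with the median of probes, -0.15 in the deposited table, -0.17 over probes and -0.17 without the chromosome 15 block. After the length step it was -0.098 with loess, -0.065 with normexp, -0.053 with at least 5 probes, -0.092 in the deposited table, -0.063 within each probe length and -0.052 without the block. Leaving out each array gave -0.20 to -0.19 and, after the length step, -0.083 to -0.071.

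The relative shift stayed above 0 but never reached an exact permutation p under 0.2. With equal spread of the arrays it was 0.0045, and 0.0053 after the length step. The same 2 values were 0.012 and 0.011 with quantile normalisation, 0.016 and 0.010 with normexp, and 0.032 and 0.021 with loess. Leaving out each array gave 0.0053 to 0.042 and, after the length step, 0.0036 to 0.023, the lowest without cadmium 2. The labels do not state that arrays of the same replicate number were paired. Same-numbered deviations correlated at -0.19, -0.10 and 0.37. These correlations cannot settle a pairing, with 3 arrays per group and some same-numbered arrays sharing a scan batch. With the replicate number as a block the shift was 0.029 (p = 0.5 in an exact test over sign changes of the same-numbered differences). The smallest p possible in that test is above the 0.1 of 3 against 3 arrays. After the length step the shift was 0.014, and 0 members were called with this block.

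Of the 18 tiles chosen by p, 13 kept their direction in every setting in which they could be tested. Some of the 18 could be tested in only 24 or 25 of the 26 settings. Those that reversed were on chromosome 11 from 42029727 (-0.033 with equal spread of the arrays, -0.031 in the deposited table), 76993788 (-0.0055 with normexp) and 87214524 (-0.016 with normexp), on chromosome 15 from 50925548 (0.0076 with the median of probes) and on chromosome 18 from 30125936 (-0.10 with no filter on dim probes, -0.029 in the deposited table). The causes were not tested. Without the block and centring on kept probes were chosen after seeing the data.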
